A study of Mus musculus with 4 samples.

Results

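Transcripts of respiratory complexes II to V were followed in mouse oocytes after a hydrostatic pressure treatment. The members are the genes whose array name begins with Uqcr, Atp5 or Cox followed by a digit of 4 to 8, together with Cyc1, Cycs and the 4 Sdh subunit genes. The rule reads gene names alone, but it was drawn up with earlier results of these arrays known. They are 47 of the 27670 genes on the array and are covered by 65 probes of 60 nt. By name, complex II held 4 members, complex III 8, complex IV 18 and complex V 16, and Cycs, the gene for cytochrome c, stood alone. RefSeq names Cox4nb as Emc8 and Atp5s as Dmac2l, and neither is a structural subunit. It also names Uqcr as Uqcr11 and Atp5f1 as Atp5pb, which are subunits.

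The treated group was 4 pools of 50 oocytes held under a hydrostatic pressure of 20 MPa for 60 min at 37 °C. The control group was 4 pools of 50 oocytes handled alike but without the pressure. Strain, age and maturation stage of the oocytes are not given in the sources used here. Each of 4 two-colour arrays compared 1 treated pool, labelled red (Cy5), with 1 control pool, labelled green (Cy3), so dye and treatment cannot be told apart. RNA of a pool was amplified in 2 rounds from 240 pg of total RNA, and the number of arrays limits the precision of every value. A log2 ratio is that of treated over control on 1 array.

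Replicate 1 ran against the other arrays over all probes, with correlations of its log2 ratios with theirs between -0.19 and -0.15, against 0.09 to 0.29 among replicates 2 to 4. By the labels its treated pool was red, as on the other arrays, and whether the dyes were swapped on it cannot be settled from the labels. The direction of every value of replicate 1 is therefore in doubt, and results that rest on it are given also with its sign turned, without it or with the value of each array. Over the 31 members that could be tested, replicate 1 did not stand apart in this way. Its correlations with replicates 2 to 4 were -0.06, 0.02 and 0.18. Replicate 2 had -0.235 with replicate 3 and -0.207 with replicate 4, and replicates 3 and 4 had 0.338.

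Complexes II, III and IV pass electrons from succinate and ubiquinol through cytochrome c to oxygen, and complexes III and IV pump protons as they do so. Complex V, the ATP synthase, uses the proton gradient to make ATP. Oocytes carry many maternally inherited mitochondria and draw most of their ATP from this pathway during maturation. Most subunits are encoded in the nucleus, and several of them have paralogous isoforms that are favoured in particular tissues.

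No member passed the test of treated over control. With limma's moderated test and Benjamini-Hochberg adjustment over 6921 genes, 0 of 31 tested members and 0 of all tested genes (0%) had an adjusted p under 0.05, and the lowest adjusted p was 0.929 for both. At an unadjusted p under 0.05, 2 members, Cox7c and Atp5g3, lay lower in treated pools, against 238 of all tested genes (3.44%). None of the members lay higher at that level, against 50 of all tested genes (0.722%). The values below therefore describe these 4 pairs of pools, and no single difference stands beyond the spread between arrays after adjustment.

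The members' ratios nonetheless lay mostly below 0. The median over the 31 tested members was -0.19 on the log2 scale, against -0.02 over all tested genes. The mean was below 0 for 22 of the 31 (71.0%), against 52.4% of all tested genes. With the sign of replicate 1 turned the members' median was -0.11, against -0.06 over all tested genes, and 21 of 31 members were below 0, against 57.2% of all tested genes, so the members lay closer to the rest. Without replicate 1 the members' median was -0.19 with 21 of 31 below 0, against -0.07 with 58.1% below 0 over all tested genes. On the single arrays the members' median was -0.10, -0.23, -0.27 and -0.06 in replicates 1 to 4, a mean of -0.17 ± 0.10 (SD, n = 4). It was below 0 on each array, while the median over all tested genes ranged from -0.04 to 0.00. The members were chosen with earlier results of these arrays known, which had already shown this direction for oxidative phosphorylation genes, so the shift is a description and has no test here.

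**Figure D1:**
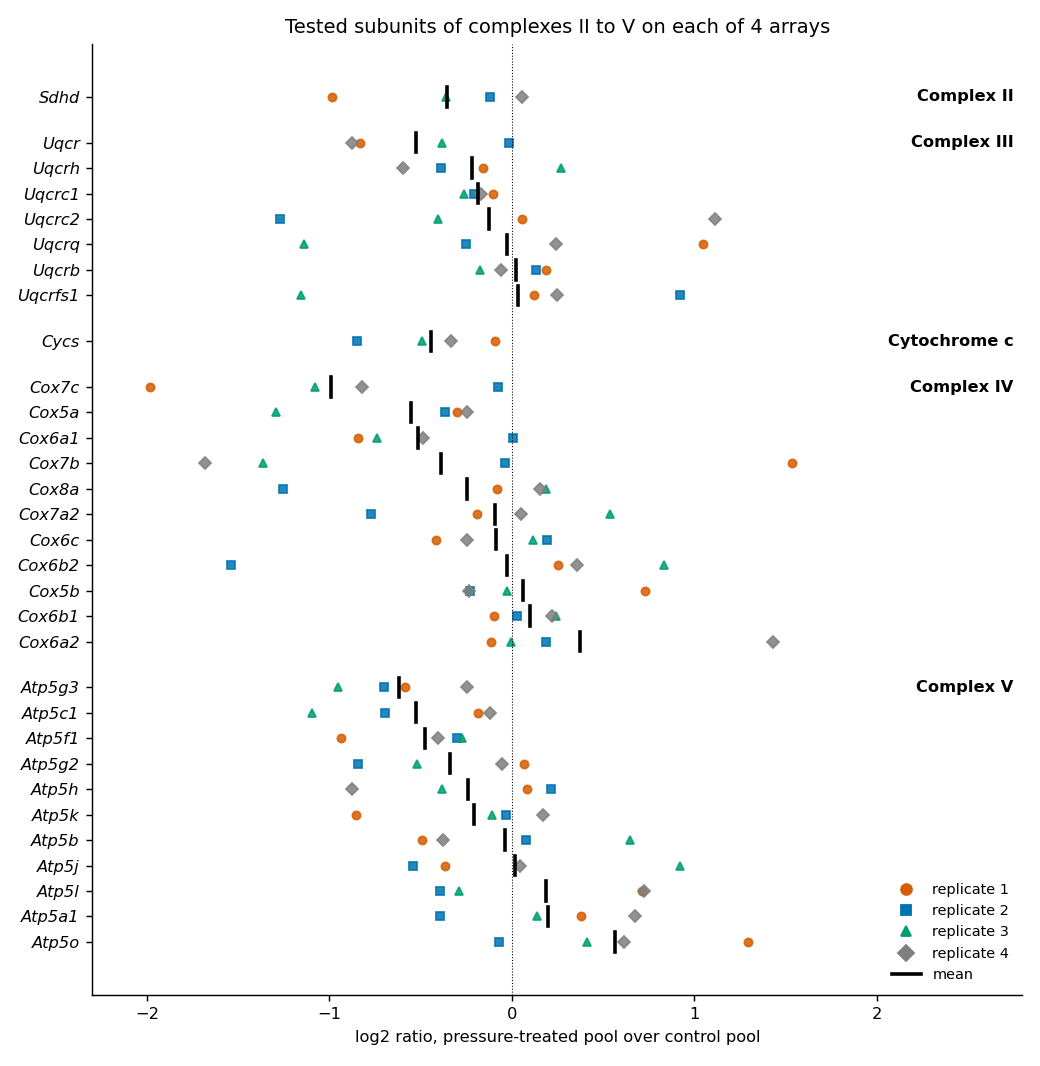
Log2 ratio of treated over control on each of 4 arrays for the 31 tested members, grouped by complex, with the mean of each member as a black bar. The means run from -0.99 for Cox7c to 0.56 for Atp5o, 22 lie below 0, and most members have arrays on both sides of 0.

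Members differed in how steady their ratios were. A ratio below 0 on all 4 arrays was found for 8 of 31 members (25.8%), against 641 of the 6864 genes with 4 values (9.34%). With the sign of replicate 1 turned it was found for 3 of 31 members, against 12.5% of all genes, so the members' excess over the background was not seen in that setting. Without the turn the 8 were Cycs, Uqcr, Uqcrc1, Cox7c, Cox5a, Atp5g3, Atp5f1 and Atp5c1. No member was above 0 on all 4 arrays, against 2.94% of all genes. A further 7 members were below 0 on 3 arrays, 11 on 2 arrays and 5 on 1 array. No member had all 4 treated pools below all 4 control pools, against 0.918% of all genes. None had all 4 treated pools above all 4 control pools either, against 0.189% of all genes. The pools of the groups thus overlapped for every tested member, and with shares this small nothing more is read from these counts. The members' median SD between arrays was 0.46, and that of all tested genes was 0.52.

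Whether a member could be tested depended on its signal. A probe was kept where it was well above background, by the scanner software's own call, in one of the channels on 3 or more arrays, and each gene was read from its brightest kept probe. This left 31 members with 37 kept probes, namely 1 member of complex II, 7 of complex III, 11 of complex IV, 11 of complex V and Cycs. Of the 31, 26 met the filter in both channels. Cox7b, Atp5k and Atp5l met it only in control pools, with 2 treated pools each. Cox6a2 and Cox6b1 met it only in treated pools, with 1 and 2 control pools. A member that enters through 1 channel is open to selection toward the group where it is bright.

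The 16 untested members included central subunits. Of complex II, Sdha, the flavoprotein that oxidises succinate, was well above background in 1 treated and 1 control pool. Sdhb, the iron-sulfur subunit, and Sdhc, a membrane anchor, were so in none of the 8 pools. Cyc1, the cytochrome c1 of complex III, reached 1 treated and 2 control pools. Of complex V, Atp5d, the delta subunit of the central stalk, was seen in no pool, while Atp5e, the epsilon subunit beside it, and Atp5j2, the f subunit of the membrane part, each reached 1 treated and 2 control pools. Cox4nb reached 1 treated and 1 control pool and Atp5s none. In all, 8 members had no probe well above background in any pool, and no ratio is given for them. A dim probe puts no limit on the transcript that other parts of the gene could show.

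The share of member probes well above background was high beside that of the array. In treated pools 44, 29, 27 and 33 of the 65 member probes were so in replicates 1 to 4 (41.5% to 67.7%), against 16.1% to 25.4% of all 41174 probes. In control pools 37, 40, 40 and 37 were (56.9% to 61.5%), against 19% to 24.5% of all probes. Treated pools exceeded their control pool in replicate 1 and fell short of it in replicates 2 to 4, both for the members and for all probes.

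**Figure D2:**
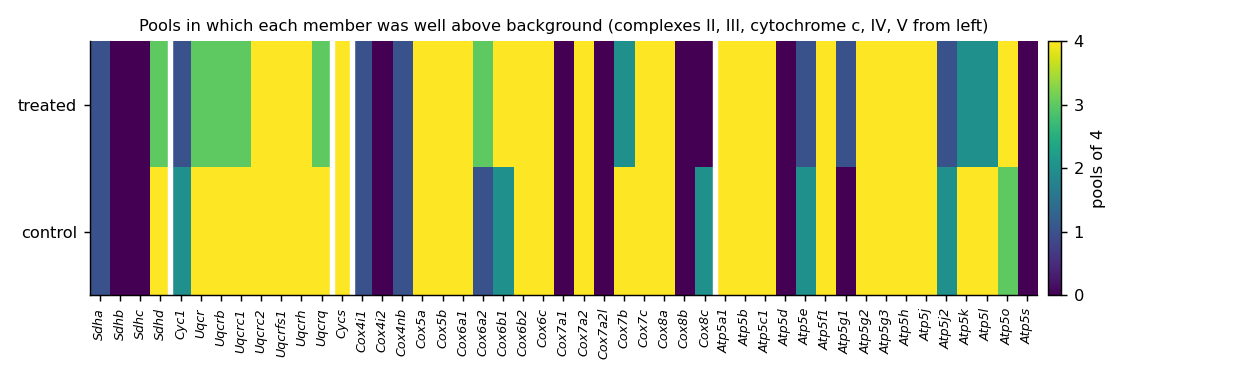
Number of treated pools (upper row) and control pools (lower row), out of 4, in which each of the 47 members was well above background, by the probe seen in most pools of that group. Dark columns such as Sdhb, Sdhc, Atp5d and Cox8b mark members seen in no pool, and 20 of the 31 tested members were seen in all 8 pools.

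Probes of 1 gene often differed in whether they were seen. Of 6 genes with both kept and not kept probes, namely Atp5b, Atp5f1, Atp5g2, Cox5a, Uqcrc1 and Uqcrq, the probe lying nearest the 3′ end was kept in 6. In Atp5f1, Cox5a and Uqcrq the probes not kept are annotated to other transcript records than the kept probe. Position and transcript cannot be told apart for these. Over all 11 genes with several probes and at least 1 kept, the brightest kept probe was the one nearest the 3′ end in 8, and not in Atp5a1, Cox7a2 and Cycs. For Cycs the probe nearest the 3′ end was seen in 3 pools, against 8 pools for the brightest. Atp5b, the catalytic beta subunit of ATP synthase, has 3 probes within one gene. The last 30 bases of each are shown in 5′ to 3′ order along the gene, because they share a transcript accession and were seen in very different numbers of pools (positions in mouse build mm7, plus strand). Their base composition differs too, with a GC content of 40%, 45% and 31.7% in that order.
Atp5b, chr10:127585810-127586488, 0 treated and 0 control pools: ggtcctatcaaaaccaaacaattcgctcct
Atp5b, chr10:127586901-127586960, 1 treated and 0 control pools: ggtgaaaagacccgtgagggcaatgattta
Atp5b, chr10:127591587-127591646, 4 treated and 4 control pools: tctctgaagagtatttaaagttttcaataa
The first and last probes start 5777 bases apart on the genome, which is not their distance along the transcript. The last was well above background in all 8 pools. Among all 65 member probes, 7 (10.8%) hold the polyadenylation signal letters AATAAA on the probe's own strand. They were 6 of the 37 kept probes (16.2%) and 1 of the 28 others (3.57%). The cause of this pattern was not tested.

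Complex II was represented by 1 tested member. Sdhd, a membrane anchor of succinate dehydrogenase that helps to bind ubiquinone, had log2 intensities of 6.81, 6.79, 6.55 and 6.54 in treated pools, against 7.80, 6.92, 6.92 and 6.48 in control pools (replicates 1 to 4 throughout). Treated was lower on 3 of 4 arrays, and the control pool of replicate 1 stood above all others. The mean log2 ratio was -0.35 ± 0.23 (SE, n = 4). It was -0.14 without replicate 1 and 0.139 with the sign of that array turned. With the scanner software's processed signals and with the authors' deposited table it was -2.05, so its size depended on the processing.

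Complex III had a median log2 ratio of -0.13 over its 7 tested members, 5 of them below 0, and no member passed. Uqcr, a small subunit of the cytochrome bc1 complex, had log2 intensities of 6.34, 6.61, 6.82 and 6.79 in treated pools, against 7.17, 6.62, 7.20 and 7.66 in control pools. Its mean log2 ratio was -0.53 ± 0.22 (SE, n = 4), with the gap nearly closed in replicate 2, and -0.11 with the sign of replicate 1 turned. Uqcrc1, a core protein on the matrix side, had log2 intensities of 7.16, 6.51, 6.84 and 6.88 in treated pools, against 7.26, 6.71, 7.10 and 7.05 in control pools. Its log2 ratios of -0.10, -0.21, -0.26 and -0.17 lay closest together, with an SD of 0.07 and a mean of -0.19 ± 0.16 (SE, n = 4). That moderated SE is wider than the arrays' own spread because limma borrows the spread of all genes. The closeness of the arrays did not carry over to other processing: the mean was -1.43 with the processed signals and with the authors' deposited table, and it moved by 1 SD or more in 5 settings.

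The other members of complex III showed no common direction. Uqcrfs1, the Rieske iron-sulfur protein that takes electrons from ubiquinol, had log2 ratios of 0.12, 0.92, -1.15 and 0.25, a mean of 0.03 ± 0.36 (SE, n = 4). Uqcrc2, the partner core protein, had 0.05, -1.27, -0.41 and 1.11. For both, replicates lay more than 1 log2 unit apart in opposite directions. Uqcrq, a small ubiquinone-binding subunit, ranged from -1.14 to 1.05 with a mean of -0.03. Uqcrb, another such subunit, averaged 0.02. Uqcrh, the hinge protein that bridges to cytochrome c, averaged -0.22.

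Cytochrome c carries electrons from complex III to complex IV and, once released to the cytosol, takes part in apoptosis. Cycs had log2 intensities of 7.89, 7.89, 7.12 and 7.60 in treated pools, against 7.99, 8.74, 7.62 and 7.93 in control pools. Treated was lower on 4 of 4 arrays, while the pools of the groups overlapped. The mean log2 ratio was -0.44 ± 0.19 (SE, n = 4; limma unadjusted p = 0.067, adjusted p = 0.929). Cycs has 2 further kept probes, which overlap each other by most of their length and lie farther 3′ than the brightest one. Neither was well above background in any treated pool, and each was so in 3 control pools. For these, control over treated is a bound, at least 1.27-fold for the nearer and at least 1.15-fold for the farther one, computed from the control mean. On each array the treated side was set to the probe's own signal or, where that was lower, to the faintest treated signal called well above background. These 2 further probes were kept through the control channel alone, which selects for low treated signal, so nothing is read from their direction. The 3 probes end as follows, from 5′ to 3′ along the gene, and are shown because they differ in how often they were seen (mm7, minus strand).
Cycs, chr6:50525306-50525365, brightest: agaaagggcagacctaatagcttatcttaa
Cycs, chr6:50524593-50524652: aaatacccactcagaaacacacataactgg
Cycs, chr6:50524573-50524632: acataactggaattcgattaggaatggcac

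Complex IV had a median log2 ratio of -0.09 over its 11 tested members, with 8 below 0. Cox7c, a small subunit of cytochrome c oxidase, had the lowest mean of all members. Its log2 intensities were 6.14, 7.50, 8.0 and 6.73 in treated pools, against 8.12, 7.58, 9.07 and 7.55 in control pools. Treated was lower on each array, from a log2 ratio of -0.08 in replicate 2 to -1.98 in replicate 1. The mean was -0.99 ± 0.33 (SE, n = 4), 0.503 of the control level (limma unadjusted p = 0.027, adjusted p = 0.929). That array ran against the others over all genes, and turning its sign brought the mean of Cox7c to 0.00181.

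Cox6a1 and Cox5a came next in complex IV. Cox6a1, the broadly expressed isoform of a regulatory subunit, had log2 intensities of 11.10, 11.52, 10.66 and 11.21 in treated pools, against 11.94, 11.52, 11.40 and 11.70 in control pools. Treated was lower on 3 arrays and level with control in replicate 2, where the ratio was 0.01. The mean log2 ratio was -0.52 ± 0.21 (SE, n = 4), and -0.09 with the sign of replicate 1 turned. Cox5a, a matrix-side subunit, had log2 intensities of 12.57, 12.25, 9.997 and 11.54 in treated pools, against 12.87, 12.62, 11.29 and 11.78 in control pools. Replicate 3 held the lowest pool of each group and the widest gap, a log2 ratio of -1.29. The mean was -0.55 ± 0.24 (SE, n = 4) and -0.30 without replicate 3. Cox5b, the zinc-binding neighbour of Cox5a, had log2 ratios of 0.73, -0.23, -0.03 and -0.24, a mean of 0.06 ± 0.23 (SE, n = 4).

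The isoforms of complex IV differed in whether they were seen. Of the Cox4 pair, Cox4i1, the common isoform, was well above background in 1 treated and 1 control pool and Cox4i2, the lung-enriched one, in none. Of the Cox6a pair, Cox6a1 was seen in 4 treated and 4 control pools. Cox6a2, the isoform of heart and skeletal muscle, was seen in 3 treated and 1 control pools, with log2 ratios of -0.11, 0.19, -0.00 and 1.43, so that its mean of 0.38 ± 0.31 (SE, n = 4) rests on replicate 4. Without that replicate it was 0.02. Cox6b1, the common isoform, was seen in 4 treated and 2 control pools with a mean of 0.10. Cox6b2, known from testis, was seen in 4 and 4, with log2 ratios of 0.25, -1.54, 0.84 and 0.35 and a mean of -0.02.

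Among the Cox7 and Cox8 genes, several were seen in no pool. Cox7a1, the muscle isoform, and Cox7a2l, a factor in joining complexes III and IV, were among them. Cox7a2, the common isoform, was seen in 4 treated and 4 control pools. Its 2 overlapping probes gave mean log2 ratios of -0.09 over 4 arrays and -0.29 over the 3 arrays left after a flagged spot. Cox7b, encoded on the X chromosome, had log2 ratios of 1.53, -0.04, -1.36 and -1.68, the widest spread of any member with an SD of 1.47. Cox8a, the common Cox8 isoform, averaged -0.25 and was seen in 4 and 4 pools. Cox8b was seen in no pool, and Cox8c in 0 treated and 2 control pools. Cox6c, a small subunit seen in all pools, averaged -0.09.

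Complex V had a median log2 ratio of -0.21 over 11 tested members, with 7 below 0. Without replicate 1 the median of the members' means was 0.01 and 5 of 11 were below 0. On the single arrays the members' median was -0.18, -0.40, -0.27 and -0.05 in replicates 1 to 4, below 0 on each. The proton-carrying c ring is encoded by 3 genes, Atp5g1, Atp5g2 and Atp5g3, whose mature proteins are identical. Atp5g3 had log2 intensities of 10.61, 7.80, 9.31 and 9.81 in treated pools, against 11.19, 8.50, 10.27 and 10.06 in control pools. Treated was lower on 4 of 4 arrays, by less than the spread between pools of either group. The mean log2 ratio was -0.62 ± 0.19 (SE, n = 4), 0.65 of the control level (limma unadjusted p = 0.019, adjusted p = 0.929), the lowest unadjusted p of any member. Atp5g2 had log2 ratios of 0.06, -0.84, -0.52 and -0.05, a mean of -0.34 ± 0.22 (SE, n = 4). Atp5g1 was well above background in 1 treated and 0 control pools and was not tested.

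**Figure D3:**
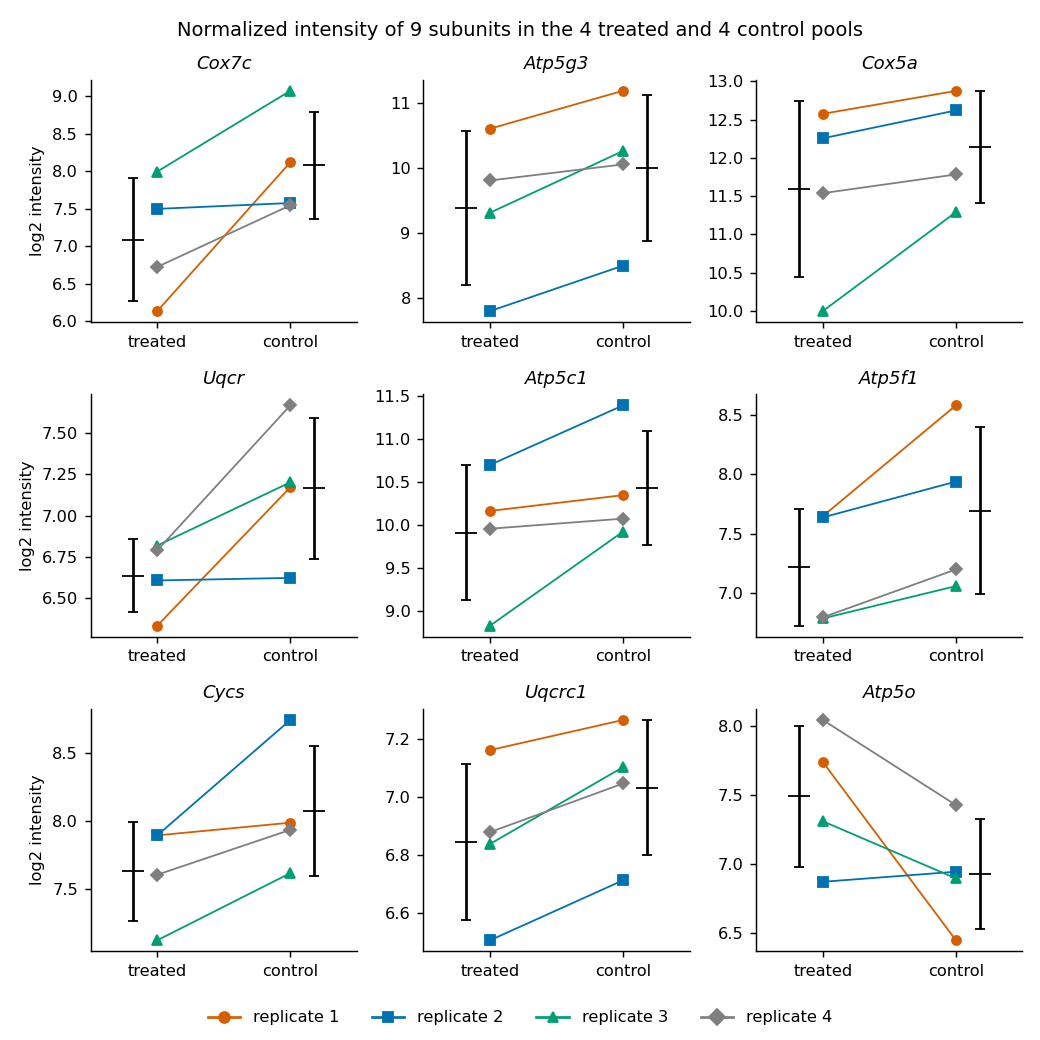
Log2 intensity of the 8 members below 0 on all 4 arrays and of Atp5o in treated (left) and control (right) pools, with lines joining the pools of 1 array and bars for the mean ± SD (n = 4). The lines of the first 8 members rise toward control on every array, while the ranges of the groups overlap in each panel.

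The stalks of ATP synthase held the other 2 members below 0 on all 4 arrays. Atp5f1, the b subunit of the peripheral stalk, had log2 intensities of 7.65, 7.64, 6.78 and 6.79 in treated pools, against 8.58, 7.94, 7.06 and 7.20 in control pools. Its mean log2 ratio was -0.48 ± 0.19 (SE, n = 4), with the widest gap in replicate 1, and it was -0.01 with the sign of that array turned. Atp5c1, the gamma subunit of the rotating central stalk, had log2 intensities of 10.16, 10.70, 8.83 and 9.96 in treated pools, against 10.35, 11.40, 9.92 and 10.07 in control pools. Its mean log2 ratio was -0.52 ± 0.23 (SE, n = 4), and replicates 1 and 4 showed little difference.

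Atp5o, the oligomycin sensitivity protein that ties the peripheral stalk to the catalytic head, had the highest mean of the members. Its log2 intensities were 7.74, 6.87, 7.31 and 8.05 in treated pools, against 6.45, 6.94, 6.90 and 7.43 in control pools. Treated was higher on 3 of 4 arrays, most in replicate 1. The mean log2 ratio was 0.56 ± 0.26 (SE, n = 4; limma unadjusted p = 0.078, adjusted p = 0.929). With the sign of replicate 1 turned it was -0.08. Atp5f1 and Atp5o, which belong to the same peripheral stalk, thus had means on opposite sides of 0, and the difference between them was not tested.

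The catalytic head lay near 0. Atp5a1, the alpha subunit, had log2 ratios of 0.38, -0.40, 0.14 and 0.67, a mean of 0.20 ± 0.23 (SE, n = 4). Its second probe gave a mean of -0.12, so that its direction depended on the probe. Atp5b, the beta subunit, had log2 ratios of -0.49, 0.08, 0.65 and -0.38, a mean of -0.04 ± 0.25 (SE, n = 4). Atp5h, the d subunit of the stalk, averaged -0.24 by its brightest probe and -0.15 by the other. Of the small subunits, Atp5k (e) averaged -0.21, Atp5l (g) 0.19 and Atp5j (coupling factor 6) 0.01, each with arrays on both sides of 0. Atp5k averaged 0.00997 without replicate 1 and 0.221 with the sign of that array turned, and the sign of Atp5l also changed with that turn. Uqcrh of complex III likewise has a second kept probe, with a mean of -0.01.

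Members' promoters were read for binding motifs of factors known to act on respiratory genes. RefSeq (GRCm38.p6) gave a start for 35 of the 47 members, 25 of them tested, and the window ran from 250 bases before to 30 after it, on both strands. GCGCATGCG, of nuclear respiratory factor 1, was in 6 of 35 windows (17.1%) against 1.72% of all 27025 windows. These were the windows of Atp5g2, Atp5k, Atp5l, Cox6a1, Cycs and Uqcr, and nothing is read from the direction of their ratios. The letters were shortened by 1 base after a longer form had been counted. That form, equal to a match on both strands at overlapping letters, was in 3 of 35 windows (8.57%) against 0.914% of all windows. CCGGAAG, of the ETS factor GABP, was in 11 (31.4%) against 8.7%, and GGGCGG, of SP1, in 13 (37.1%) against 34.9%. AAGATGGCG, of YY1, was in 0 member windows against 1.1%, and was shortened by 1 base likewise. The windows of all genes include non-coding genes, and a match is a description of letters, not a bound site. The windows of the lowest and second lowest unadjusted p in complex IV are shown with matches in capitals, since both members averaged below 0 and differ in these letters.
Cox7c, GRCm38.p6 chr13:86046766-86047045, minus strand, no match: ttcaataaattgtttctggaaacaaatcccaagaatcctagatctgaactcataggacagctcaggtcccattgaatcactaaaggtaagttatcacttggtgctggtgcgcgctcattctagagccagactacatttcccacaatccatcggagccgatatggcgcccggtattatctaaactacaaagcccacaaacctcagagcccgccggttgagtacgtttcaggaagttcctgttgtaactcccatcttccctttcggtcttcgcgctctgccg
Cox6a1, GRCm38.p6 chr5:115348929-115349208, minus strand, matches in order NRF1 (on both strands, overlapping), SP1, SP1 and GABP: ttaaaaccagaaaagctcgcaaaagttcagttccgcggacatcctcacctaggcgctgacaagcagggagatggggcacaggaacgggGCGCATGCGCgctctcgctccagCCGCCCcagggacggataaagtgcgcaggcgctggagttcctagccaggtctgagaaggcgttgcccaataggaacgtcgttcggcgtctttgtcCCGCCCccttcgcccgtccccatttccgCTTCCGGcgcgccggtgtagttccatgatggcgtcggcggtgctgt

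Other mitochondrial genes were set beside the members. Over all tested genes 52.4% were below 0, and 9.34% of those with 4 values were below 0 on all 4 arrays. Genes of complex I (Nduf), the NADH dehydrogenase, had a median log2 ratio of -0.15 over 32 tested. Of these 25 were below 0 (78.1%) and 8 were below 0 on all 4 arrays (25%). Mitochondrial ribosomal proteins had -0.18 over 43, with 32 below 0 (74.4%). Only 5 were below 0 on all 4 arrays (11.6%), near the share of all genes. Cytosolic ribosomal proteins, which are not mitochondrial, lay farther from 0, with a median of -0.37 over 61. Of these 51 were below 0 (83.6%), and 22 of the 60 with 4 values were so on every array (36.7%). Without replicate 1 the medians of these groups were -0.19, -0.15 and -0.35 in that order, against -0.07 over all tested genes. The members of complexes II to V thus had a median near those of the other mitochondrial groups. It lay on the same side of 0 as that of cytosolic ribosomal proteins, and no difference between these groups was tested.

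**Figure D4:**
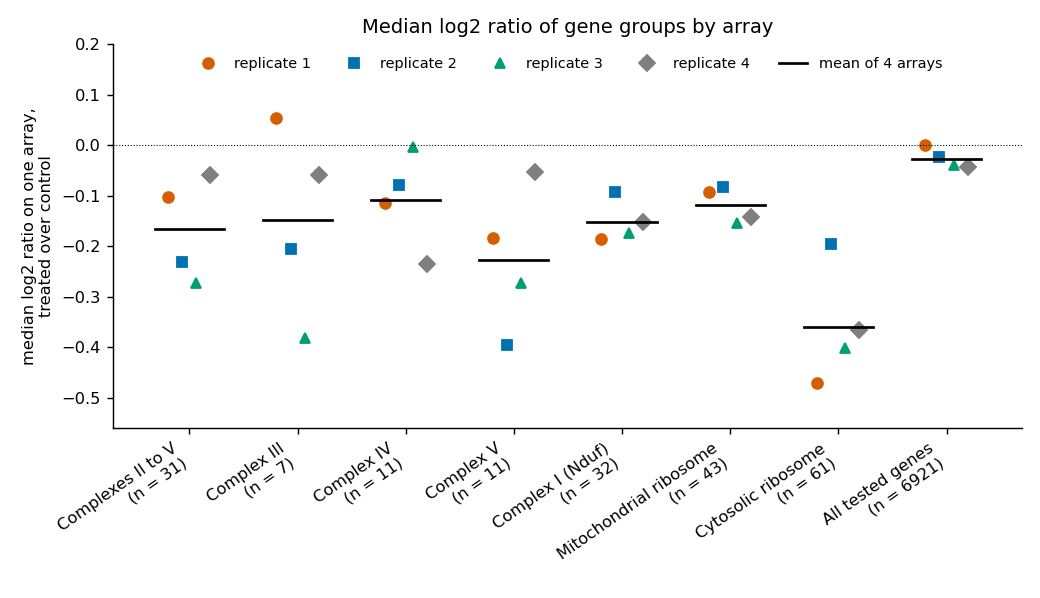
Median log2 ratio of treated over control on each array for the members, for complexes III, IV and V, for 3 comparison groups and for all tested genes, with the mean of 4 arrays as a bar. The members' medians lie between -0.27 and -0.06, those of all genes between -0.04 and 0.00.

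Genes that serve the complexes were counted from lists of known members. Of 43 assembly factors listed for complexes II to V, 20 were tested, 15 were below 0, the median log2 ratio was -0.10 and 0 passed. The lowest unadjusted p belonged to Coa6, a copper chaperone for complex IV, with a mean of -1.26 ± 0.45 (SE, n = 4), and to Sdhaf1, which helps to insert iron-sulfur clusters into Sdhb, with -0.43 ± 0.21 (SE, n = 4). Coa6 had log2 ratios of -1.41, -0.12, -0.74 and -2.78, near 0 in replicate 2 and lowest in replicate 4. Sdhaf1 had log2 ratios of -0.98, -0.19, -0.24 and -0.33, so the size of its mean leaned on replicate 1, whose direction is in doubt. Coa6 was seen in 2 treated and 4 control pools and Sdhaf1 in 1 treated and 4 control pools, so both entered the test through the control channel alone. Of 20 regulators of mitochondrial biogenesis 8 were tested, with a median of 0.00 and 4 below 0. Polrmt, the mitochondrial RNA polymerase, averaged -0.35 and Tfb1m, a mitochondrial rRNA methyltransferase, -0.21. Both also entered through the control channel alone, Polrmt with 2 treated and 4 control pools and Tfb1m with 1 treated and 3 control pools. The 6 subunits encoded in mitochondrial DNA that were listed were not analysed here, since no probe matched their names.

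Substrate supply and ATP export gave single low genes. Of 15 citric acid cycle genes 9 were tested, with a median log2 ratio of -0.05 and 5 below 0. Mdh2, mitochondrial malate dehydrogenase, averaged -0.91 ± 0.23 (SE, n = 4; limma unadjusted p = 0.0092, adjusted p = 0.929), and Idh3g, a subunit of isocitrate dehydrogenase, averaged 0.27. The log2 ratios of Mdh2 were -1.39, -0.35, -0.72 and -1.18, lowest in replicate 1, whose direction is in doubt. Idh3g was seen in 4 treated and 2 control pools and so entered through the treated channel alone. Of 7 adenine nucleotide, phosphate and outer membrane carriers 6 were tested, with a median of -0.33 and 4 below 0. Vdac2, an outer membrane channel, averaged -1.33 ± 0.35 (SE, n = 4; limma unadjusted p = 0.011, adjusted p = 0.929). Its log2 ratios were -1.60, -0.09, -1.997 and -1.64, so it was near 0 in replicate 2, and its mean leaned in part on replicate 1. Vdac1 averaged -0.49 over the 3 arrays with an unflagged spot. None of these genes passed.

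The arrays and cells were checked against their labels. Of 18 oocyte markers listed, 13 were tested, with a median log2 ratio of -0.08. Zp3, Gdf9, Bmp15 and the other tested ones were well above background in all 8 pools, except Padi6 and Npm2. Padi6 was so in 1 treated and 3 control pools, and Npm2 in 2 treated and 3 control pools. Markers of other cells, namely Tnfaip6, Nr5a1, Srgn, Hba-a1 and Acta2, were also so in all 8 pools, so detection alone does not separate the lists. Cumulus and granulosa markers were tested for 8 of 20, blood and immune markers for 2 of the 9 on the array, and oviduct, endothelial and stromal markers for 3 of 12. Summed intensities of the oocyte markers ranged from 72040 to 208684 in treated pools and from 104463 to 138790 in control pools. Sums of the other lists lay far below these, though fewer of their genes were tested. Those of the cumulus markers ranged from 1164 to 3940 in treated pools and from 1433 to 2982 in control pools. Those of the blood markers ranged from 1438 to 2538 in treated pools and from 1821 to 3711 in control pools, and those of the oviduct, endothelial and stromal markers from 793 to 1813 in treated pools and from 480 to 1115 in control pools. The blood and immune marker Srgn, named after its values were seen, was below 0 on 4 of 4 arrays, with a mean log2 ratio of -0.52 ± 0.16 (SE, n = 4; limma unadjusted p = 0.020, adjusted p = 0.929). It lay farther below 0 than the members' median, and the other tested blood marker, Hba-a1, averaged 0.28. The part of other cells in the members' ratios was not tested. In pooled cells, fewer transcript-bearing cells and less RNA per cell cannot be told apart.

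The members' shift was recomputed under 18 other settings. Their median stayed below 0 in each, from -0.69 with median centring of the arrays to -0.05 with no filter on dim probes. Median centring moved all tested genes too, to a median of -0.34, and the scanner software's processed signals moved them to -0.12. Of the 22 members below 0, 11 were below 0 in every setting that gave a value. They were Cycs, Uqcr, Uqcrc1, Uqcrh, Cox6a1, Cox5a, Atp5g3, Atp5f1, Atp5c1, Atp5g2 and Atp5h. Of the 9 above 0, Cox6a2 and Cox6b1 were above 0 in every such setting. Both had passed the filter through the treated channel alone, which selects for high treated signal, so nothing is read from their direction. Several settings could not change a member's mean, such as other moderation and other filters on dim probes, and the authors' table repeats the processed signals. The 18 settings are therefore not separate checks of a sign, and the same counts were not made over all tested genes. The median of complex IV was 0.09 without replicate 2.

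**Figure D5:**
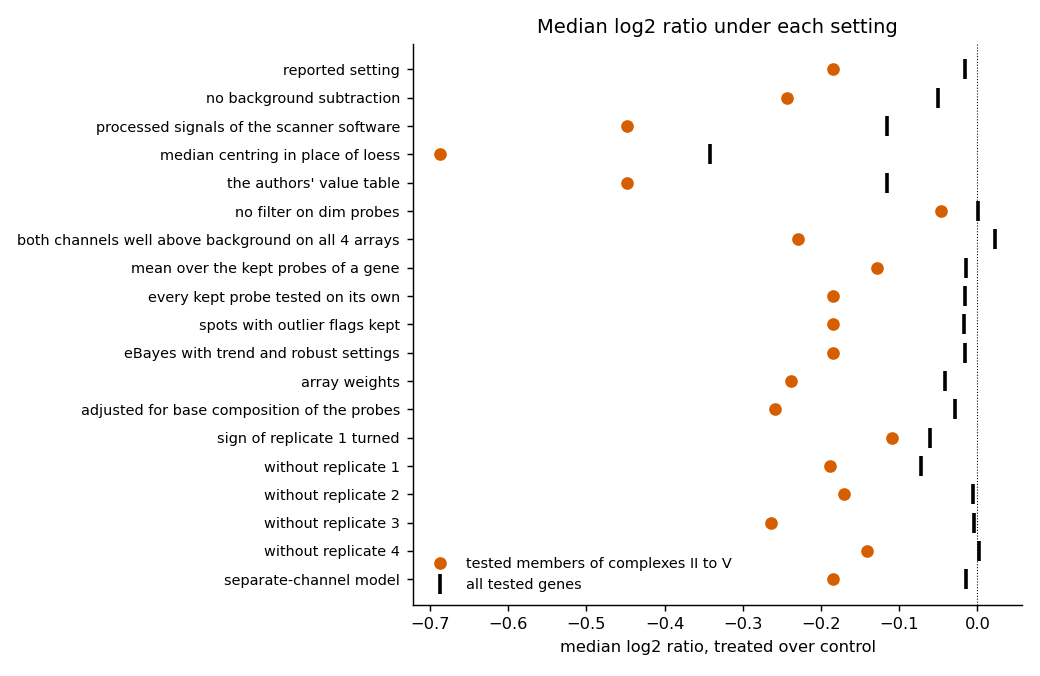
Median log2 ratio of treated over control for the tested members (circles) and for all tested genes (bars) in the reported setting and 18 others. The members' median lies between -0.69 and -0.05 and to the left of the median of all genes in each setting.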

How the data were processed

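For every spot the deposited files give red and green mean intensity and median local background. The scanner software was Agilent Feature Extraction 9.5.1.1, as the submitters' processing notes state. The authors' value table is the deposited log10 ratio of red over green, equal to the scanner files' ratio to within 5e-10, with a median of 0. Probe positions are in mm7, per the file headers. The 4 arrays share 1 slide and 1 scan, so there was no batch of slide or scan to block, and batches at other steps were not examined.

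From the intensities, limma 3.58.1 (R 4.3.3) corrected background by normexp (offset 50) and normalized each array by loess. Flagged spots were left out, none was saturated, and 8115 of 41174 probes passed the filter. Log2 ratios were tested against 0 with lmFit and eBayes, which were run on simulated data. Recovery of changes was required there only at a spread well below that between these arrays. The check therefore does not show which changes the test could find at the arrays' own spread. Intensities per pool are after loess and Aquantile. Of 6921 genes, 5032 were named through RefSeq accessions (GRCm38.p6), 816 by symbol and 379 by synonym.

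Members and lists were chosen with earlier results of these data known. Values on every array are given for the 2 members of each complex with the smallest p and for core subunits, and for lists the 2 genes with the smallest p. The alternatives covered background, normalization, filters, probe rule, moderation, base composition, replicate 1's sign and leaving out each array.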

Additional observations from a re-analysis of the deposited data

Results flagged for a closer look

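Among 38 sets of 4 values over the arrays (the tested members, medians of the complexes, signal and detection), 2 held an array far from the other 3 by Dixon's ratio, where chance gives about 5%. The log2 ratio of Cox5a was -1.29 in replicate 3, against -0.36 to -0.24 in the others. The treated over control ratio of net signal at the 99th percentile was 2.56 in replicate 1, against 0.25 to 0.40 in the others, before normalization.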

How the results depend on the processing

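No gene and no member passed in the reported setting or in any of 18 others. The lowest adjusted p over the settings was 0.0534 for a gene and 0.2 for a member, both with the sign of replicate 1 turned. The genes at an unadjusted p under 0.05 numbered 71 to 930, and 288 as reported. The members' median was -0.448 with the processed signals and with the authors' table, -0.687 with median centring and -0.0469 with no filter on dim probes. Leaving out 1 array gave -0.264 to -0.141. The number of members below 0 on all arrays was 4 with median centring, where 6.75% of all genes were so. It was 3 with the sign of replicate 1 turned, where 12.5% of all genes were so. With 1 array left out only 3 arrays remain, and it was 9 to 11, while the share of all genes rose to between 13.8% and 21.8%. Sdhd, alone in complex II, had -2.05 with the processed signals and the authors' table and 0.139 with the sign of replicate 1 turned. For complex III the median was -0.385 with the processed signals and the authors' table, -0.476 with median centring and -0.212 to -0.035 with 1 array left out. For complex IV it was -0.197 with both of the first, -0.795 with median centring, -0.326 with array weights and -0.303 to 0.0878 with 1 array left out. For complex V it was -0.465 with both of the first, -0.597 with median centring, -0.0301 with no filter and -0.264 to 0.00997 with 1 array left out. The cause of these shifts was not tested. Of 516 members' ratios under other settings 44 moved by 1 SD or more, and several of these settings leave a member's ratio unchanged by design. The reported test was itself paired, since each ratio sets the treated against the control pool of the same array, and the separate-channel model, which takes the pools of an array as correlated channels, also called 0 genes. The arrays' number and the dim probes of 16 members limit what could be shown.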
